A study of Mus musculus with 24 samples.

Results

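The genes described here are 10 genes of the actin cytoskeleton that are linked to serum response factor (SRF), namely Srf, Actb, Actg1, Myh9, Lima1, Cnn2, Vcl, Flna, Ankrd1 and Csrp3. They were taken by symbol from a table of raw read counts with 18669 genes, and all 10 were present and passed the filter that left 13754 genes for testing. RNA of the quadriceps femoris was sequenced from 24 mice in 12 groups of 2. The 3 genotypes, on a CBA x C57BL/6 background, were wild type (WT) mice, R6/2 mice that carry the first exon of mutant human HTT under the human promoter, and mice with a homozygous deletion of Hsf1 (Hsf1-/-). In the HS experiment, anaesthetised mice were held on a heating pad at 41.5 °C for 15 min (HS) or at 36.9 °C for 21 min (control). In the HSP990 experiment, mice received 12 mg/kg of the HSP90 inhibitor NVP-HSP990 (HSP990) or saline (vehicle) by oral gavage. All muscles were taken 4 h after treatment. WT and R6/2 mice were 12 weeks old, whereas Hsf1-/- mice were 10 weeks old in the HS experiment and 8 weeks old in the HSP990 experiment, so that the deletion and the age cannot be told apart.

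SRF is a transcription factor that binds the CArG box of promoters. It works with partner proteins of 2 kinds. The myocardin-related transcription factors (MRTFs) are held in the cytoplasm by unpolymerised actin and are released when actin filaments assemble. The ternary complex factors respond to growth signals and act on immediate early genes. Many products of SRF target genes build or anchor the actin filament itself, and Srf is among its own targets. In a muscle biopsy these transcripts come from muscle fibres and from blood vessels, connective tissue and immune cells together. Fewer cells of a type and less RNA per cell cannot be told apart in such samples.

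The libraries held 22450177 to 46599238 counts. Hsf1 was at 21.1 to 29.0 CPM (counts scaled to a common library size by the trimmed mean of M-values, TMM) in the Hsf1-/- mice and at 45.3 to 68.5 CPM in all other mice. The counts of 4 Y-linked genes summed to 0 to 4 in WT and R6/2 mice of the HS experiment and to 3916 to 9392 in all other mice. Sex-linked expression therefore differed between the experiments in WT and R6/2 but not in Hsf1-/- mice, and between Hsf1-/- and WT in the HS experiment. Treated mice and their own controls were alike in this respect. In R6/2 libraries 14.7 to 21.9% of the counts fell on the top 20 genes, and in each of the others at least 32.7%. The summed level of 8 muscle fibre markers was 49950 to 95060 CPM in R6/2 and 186200 to 258700 CPM in the other mice. That of 6 slow fibre markers was 113.7 to 312.8 CPM in R6/2 and 83.15 to 580.9 CPM in the other mice.

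The promoters are described first because the CArG box is the site that SRF binds. RefSeq windows of GRCm38.p6, which run from 250 bases before to 50 bases after a gene's start, were found for 9 of the 10 genes, and Actb had no entry. A CArG box was searched on both strands as CC, then any A or T in the middle positions, then GG. It was present in 5 of the 9 genes (55.6%), against 488 of the 27025 genes with a window (1.81%). The boxes of Srf, Cnn2, Lima1, Actg1 and Vcl are printed below in capitals, on the strand of the gene and without bases after its start. They began 82 and 62 bases before the start in Srf, 56 in Cnn2, 47 in Lima1, 90 in Actg1 and 227 in Vcl.
Srf, chr17:46556185-46556274, minus strand: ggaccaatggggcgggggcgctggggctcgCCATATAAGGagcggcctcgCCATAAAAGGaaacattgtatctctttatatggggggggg
Cnn2, chr10:79988514-79988583, plus strand: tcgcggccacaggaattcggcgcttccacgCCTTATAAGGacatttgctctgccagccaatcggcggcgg
Lima1, chr15:99820157-99820226, minus strand: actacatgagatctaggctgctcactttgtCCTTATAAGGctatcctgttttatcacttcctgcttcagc
Actg1, chr11:120348546-120348615, minus strand: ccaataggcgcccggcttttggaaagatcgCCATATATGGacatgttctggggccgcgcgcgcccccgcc
Vcl, chr14:20929148-20929210, plus strand: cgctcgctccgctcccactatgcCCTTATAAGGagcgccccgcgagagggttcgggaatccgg

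Cnn2, Lima1 and Vcl carried the same letters in the box. No CArG box was found in the windows of Myh9, Flna, Ankrd1 or Csrp3. Among other genes listed as SRF-MRTF targets, 2 of 16 with a window held a box (12.5%), and among the sarcomeric actin and Z-disc genes 3 of 12 did, namely Acta1, Actc1 and Ldb3. None of 27 genes of actin dynamics held one. A pair of inverted heat shock element units, written GAANNTTC, was found in the window of Ankrd1, in 1 of the 2 windows of Csrp3 and in 9.04% of all genes with a window. In Ankrd1 it lay 118 bases before the start and is shown in capitals.
Ankrd1, chr19:36119925-36119992, minus strand: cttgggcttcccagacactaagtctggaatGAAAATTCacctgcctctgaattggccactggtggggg

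The levels of the 10 genes per length differed widely. On the scale of CPM per kilobase of exon, the median over 24 mice was 85.1 for Actb, 58.1 for Csrp3, 41.1 for Vcl and 37.1 for Srf. It was 12.4 for Flna, 11.6 for Ankrd1 and 10.9 for Myh9, and 3.7 for Cnn2, 3.34 for Lima1 and 0.773 for Actg1. In this order, the ranges over mice of neighbouring genes were separate only between Srf and Flna, between Myh9 and Cnn2 and between Lima1 and Actg1. The low level of Actg1, which encodes cytoplasmic gamma-actin, rested on 37 to 186 counts per library. Of all stretches of 40 bases in its transcript, 97.23% also occurred elsewhere in the mm9 genome, against 26.21% for Actb, 1.42% for Myh9, 1.32% for Cnn2 and none for the other 6 genes. The counts of Actg1, and to a lesser degree those of Actb, are therefore uncertain, since a single read of 40 bases from such a stretch cannot be assigned to one place. The reads were paired, and the share of pairs without a single place was not determined.

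**Figure D1:**
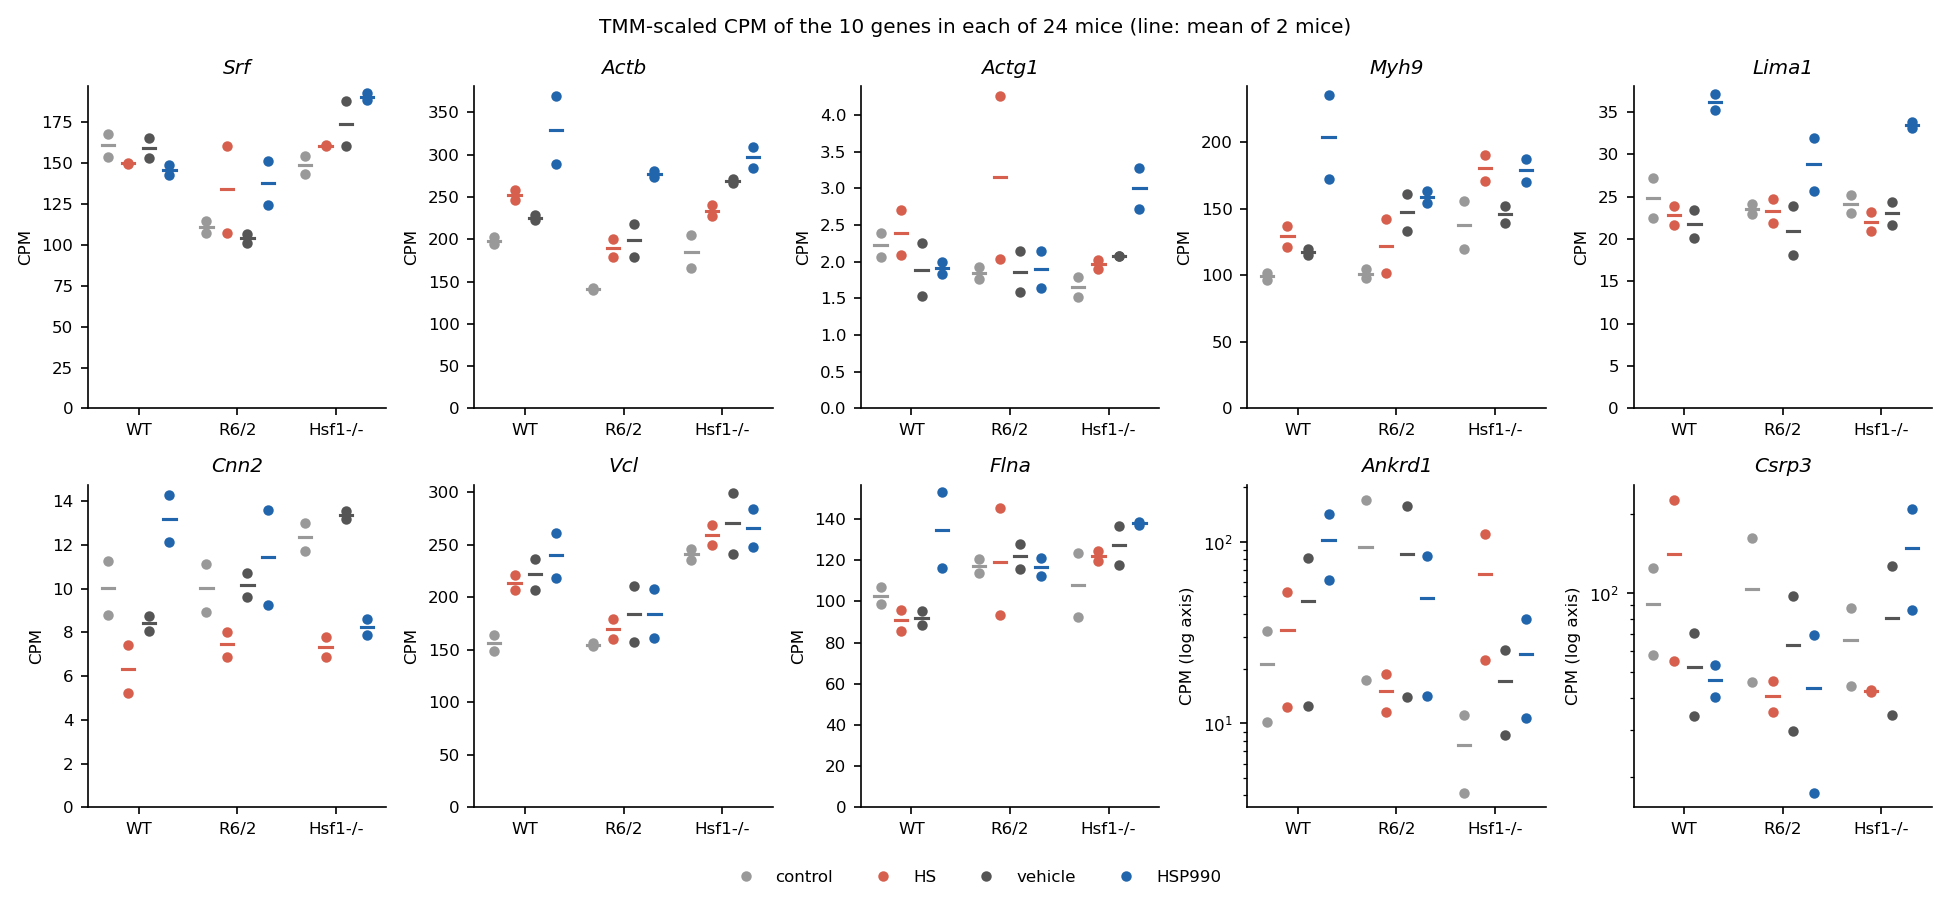
TMM-scaled CPM (vertical axis, logarithmic for Ankrd1 and Csrp3) of each of the 10 genes in the 24 mice, by genotype and treatment. Points are mice and short lines are the means of 2 mice. Actb was higher in treated than in untreated mice of every genotype, Lima1 was higher after HSP990, Cnn2 was lower after HS, and Ankrd1 and Csrp3 spread widely between the mice of a group.

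The question of the treatment comparisons was which transcripts answer to HS and to HSP90 inhibition and whether HSF1 and the R6/2 transgene alter the answer. Actb (mm9 chr5:143664794-143668433, minus strand), which encodes cytoplasmic beta-actin and is widely used as a reference gene, was the member with the most uniform treatment response. In WT it was at 202.8 and 193.8 CPM in control mice and at 246.0 and 258.8 CPM after HS. In R6/2 it was at 141.8 and 140.0 CPM in control mice and at 200.1 and 179.1 CPM after HS. Hsf1-/- mice had 165.7 and 205.2 CPM as controls and 227.5 and 240.0 CPM after HS. The HS mice lay above the control mice in each genotype without overlap, as did 23.1% of all tested genes in WT, 15.1% in R6/2 and 20.8% in Hsf1-/-.

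With HSP990, Actb went from 222.4 and 228.7 CPM to 288.8 and 369.7 CPM in WT. It went from 179.5 and 218.6 CPM to 280.9 and 273.7 CPM in R6/2. In Hsf1-/- mice it went from 266.9 and 271.6 CPM to 309.5 and 284.3 CPM. Again the treated mice lay above the vehicle mice in every genotype, as did 24.3%, 21.2% and 18.7% of all tested genes in the same order of genotypes.

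In edgeR's quasi-likelihood test over all 13754 genes with Benjamini-Hochberg adjustment, which is used throughout, Actb rose with HSP990 in WT by 0.55 ± 0.13 on the log2 scale (SE, adjusted p = 0.04). The other single-genotype differences of Actb were between 0.14 ± 0.13 (Hsf1-/- HSP990, adjusted p = 0.79) and 0.48 ± 0.13 (R6/2 HSP990, adjusted p = 0.091), and none passed the threshold. Averaged over the 3 genotypes, with 6 treated against 6 untreated mice, Actb rose by 0.37 ± 0.07 with HS (1.29-fold, adjusted p = 0.0057) and by 0.39 ± 0.07 with HSP990 (1.31-fold, adjusted p = 0.0048). The averaged comparisons were chosen after the values had been seen. They called 6.14% of all tested genes for HS and 4.65% for HSP990. Among the 10 genes they called Actb, Myh9 and Cnn2 for HS, and Actb, Myh9 and Lima1 for HSP990. Both averaged calls of Actb held when any 1 mouse was left out.

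**Figure D2:**
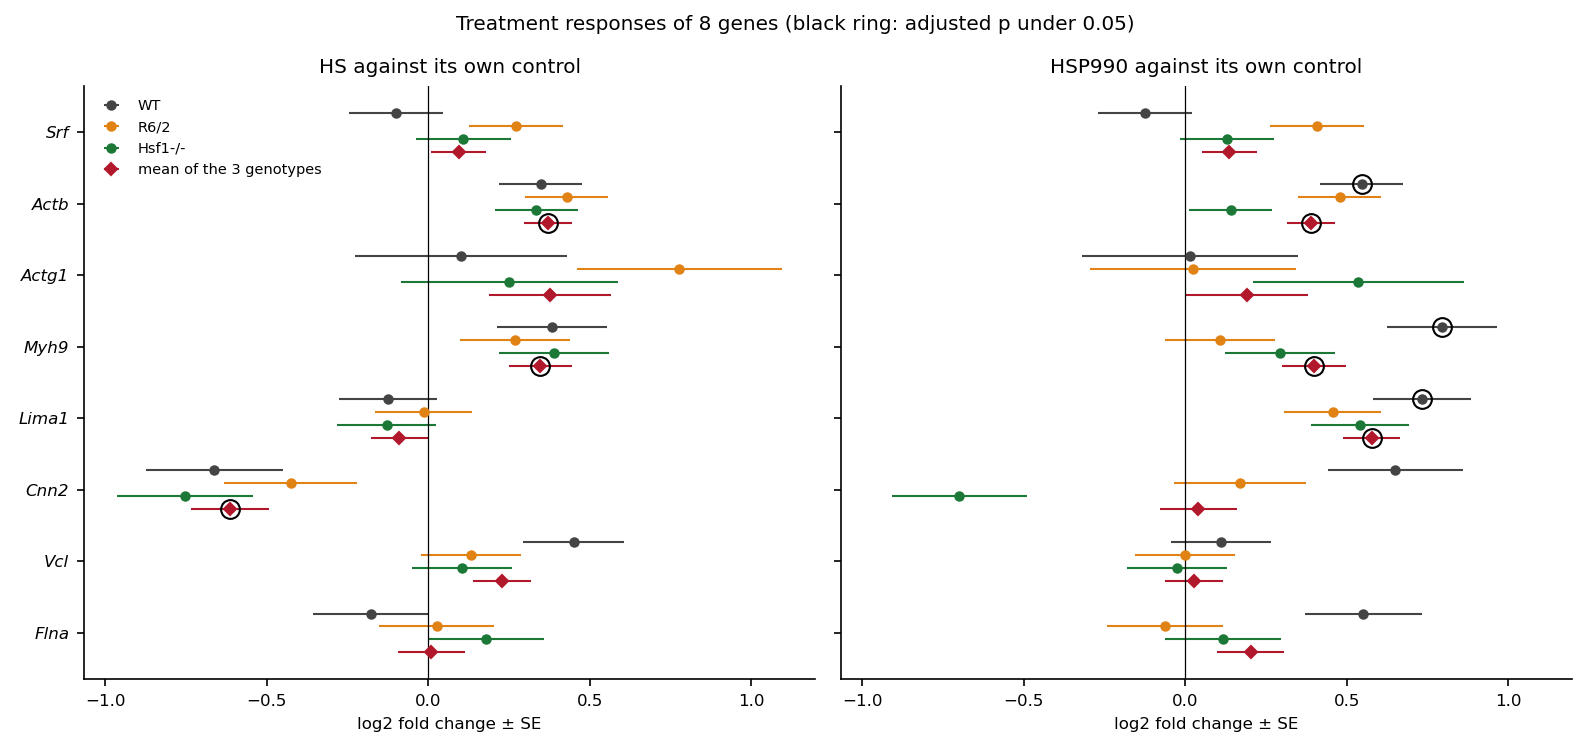
Log2 fold change with its standard error (horizontal axis) of 8 genes after HS (left) and HSP990 (right), for each genotype and for the mean of the 3 genotypes. Rings mark adjusted p under 0.05. Actb and Myh9 rose in both averaged comparisons, Cnn2 fell with HS (-0.61), and Lima1 rose with HSP990 (0.58).

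Lima1 (mm9 chr15:99608901-99705859, minus strand), which encodes a LIM protein that bundles and stabilises actin filaments, was higher after HSP990. It was at 23.38 and 20.16 CPM in WT vehicle mice and at 35.28 and 37.13 CPM after HSP990. In R6/2 it was at 23.91 and 18.09 CPM with vehicle and at 31.99 and 25.69 CPM with HSP990. Hsf1-/- mice had 24.39 and 21.67 CPM with vehicle and 33.18 and 33.81 CPM with HSP990. In each genotype the HSP990 mice lay above the vehicle mice. So did 24.3% of all tested genes in WT, 21.2% in R6/2 and 18.7% in Hsf1-/-. Lima1 rose by 0.73 ± 0.15 in WT (adjusted p = 0.021), while the differences in R6/2 (0.46 ± 0.15, adjusted p = 0.22) and Hsf1-/- (0.54 ± 0.15, adjusted p = 0.22) did not pass. Averaged over genotypes it rose by 0.58 ± 0.09 (1.49-fold, adjusted p = 0.00071), also without any 1 mouse. The averaged HS difference of Lima1 was -0.09 ± 0.09 (adjusted p = 0.66). The HS response minus the HSP990 response was -0.67 ± 0.12 (adjusted p = 0.0025) in the averaged comparison, which called 7.58% of all tested genes.

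Myh9 (mm9 chr15:77591017-77672605, minus strand) encodes the heavy chain of non-muscle myosin IIA, the motor that pulls on cytoplasmic actin filaments. It was at 119.5 and 115.3 CPM in WT vehicle mice and at 172.4 and 235.1 CPM after HSP990, and rose by 0.80 ± 0.17 (adjusted p = 0.024). In R6/2 it was at 133.5 and 161.2 CPM with vehicle and at 154.5 and 163.0 CPM with HSP990, so that the groups overlapped (0.11 ± 0.17, adjusted p = 0.95). Hsf1-/- mice had 139.3 and 152.1 CPM with vehicle and 187.3 and 169.8 CPM with HSP990 (0.29 ± 0.17, adjusted p = 0.63). Averaged over genotypes, Myh9 rose by 0.40 ± 0.10 with HSP990 (adjusted p = 0.025) and by 0.35 ± 0.10 with HS (adjusted p = 0.045). For HS the mice had 96.64 and 101.5 CPM and then 137.1 and 121.1 CPM in WT, 104.4 and 97.8 CPM and then 142.2 and 101.3 CPM in R6/2, and 119.9 and 155.7 CPM and then 190.4 and 170.4 CPM in Hsf1-/-. The averaged calls of Myh9 depended on single mice. Leaving out 1 mouse ended the HS call for 10 of 12 mice (adjusted p up to 0.14) and the HSP990 call for 6 of 12 mice (up to 0.097). The HS call was also lost with library size alone (adjusted p = 0.16), in a fit of only the groups compared (0.078) and with a replicate block (0.057).

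In WT, HSP990 thus called 3 of the 10 genes, all upwards, against 1.85% of all tested genes, and the median of the 10 was 0.55 against -0.0011 over all genes. Fitting only the 2 WT groups ended these calls (adjusted p = 0.14 for Actb, 0.088 for Myh9 and 0.062 for Lima1), and for each gene 3 of the 4 single-mouse omissions ended the call (adjusted p up to 0.42, 0.3 and 0.32). Marker sums moved with this comparison. The 7 endothelial markers summed to 477.3 and 405.8 CPM in WT vehicle mice and to 574.0 and 655.4 CPM after HSP990. The 6 smooth muscle and pericyte markers summed to 338.7 and 348.6 CPM and then to 495.3 and 440.0 CPM, and the 6 fibroblast markers to 795.4 and 812.0 CPM and then to 1298 and 1330 CPM. The 7 macrophage and leukocyte markers summed to 32.78 and 35.17 CPM and then to 42.11 and 70.31 CPM, with Mrc1 called upwards (adjusted p = 0.039). The 8 satellite cell and regenerating fibre markers summed to 187.2 and 191.8 CPM and then to 350.8 and 202.6 CPM. The 8 muscle fibre markers were lower, with 219200 and 215200 CPM and then 197700 and 213100 CPM. The endothelial, smooth muscle and fibroblast markers averaged at least 1 CPM each. The part of these sums in the result was not tested. The endothelial, smooth muscle and fibroblast sums overlapped between vehicle and HSP990 mice in R6/2 and in Hsf1-/-. In R6/2 the endothelial sums were 429.1 and 409.2 against 589.3 and 421.8 CPM. The smooth muscle sums there were 307.4 and 295.9 against 392.9 and 307.1 CPM. In Hsf1-/- the endothelial sums were 580.5 and 597.5 against 627.6 and 596.2 CPM. Between HS and control mice these 3 sums overlapped in every genotype. Some other sums were separate between vehicle and HSP990 mice. In R6/2, macrophage and leukocyte sums were lower (58.55 and 46.92, then 35.68 and 40.02 CPM). Satellite cell sums there were higher (156.2 and 181.0, then 202.4 and 190.8 CPM). In Hsf1-/-, muscle fibre sums (258700 and 240600, then 186200 and 206200 CPM) and satellite cell sums (193.3 and 276.3, then 116.9 and 105.3 CPM) were lower. Slow fibre sums there were higher.

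Cnn2 (mm9 chr10:79451329-79458807, plus strand) encodes calponin 2, an actin-binding protein of non-muscle and smooth muscle cells, and was the gene with a lower level after HS. It was at 11.29 and 8.808 CPM in WT control mice and at 7.421 and 5.241 CPM after HS. In R6/2 it was at 8.92 and 11.14 CPM in control mice and at 8.013 and 6.895 CPM after HS. In Hsf1-/- mice it was at 11.74 and 13 CPM in control mice and at 6.886 and 7.787 CPM after HS. The HS mice lay below the control mice in each genotype, as did 24.6% of all tested genes in WT, 14.5% in R6/2 and 21.6% in Hsf1-/-. The differences were -0.66 ± 0.21 in WT (adjusted p = 0.14), -0.43 ± 0.21 in R6/2 (adjusted p = 0.62) and -0.75 ± 0.21 in Hsf1-/- (adjusted p = 0.19). Averaged over the genotypes Cnn2 fell by 0.61 on the log2 scale (SE 0.12, a ratio of 0.653, adjusted p = 0.0051), and the call held without any 1 mouse.

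Slow fibre markers moved with HS. Their 6 genes summed to 221.2 and 238.8 CPM in WT control mice and to 192.5 and 190.3 CPM after HS, to 191.7 and 274.6 CPM and then 147.1 and 150.4 CPM in R6/2, and to 457.9 and 580.9 CPM and then 195.7 and 110.3 CPM in Hsf1-/-. The HS mice were lower without overlap in each genotype. None of the 6 genes passed in the averaged HS comparison (edgeR, lowest adjusted p = 0.15). An unadjusted p under 0.05 was found for 5 of them and for 18.3% of all tested genes. In WT the HS mice were also above the control mice in the summed muscle fibre, blood and satellite cell markers, and in Hsf1-/- in the macrophage and leukocyte markers. The part of these sums in the HS results of Actb, Myh9 and Cnn2 was not tested.

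With HSP990, no difference of Cnn2 passed within a genotype. It was at 8.774 and 8.065 CPM with vehicle and at 12.12 and 14.29 CPM with HSP990 in WT (0.65 ± 0.21, adjusted p = 0.15). In Hsf1-/- mice it was at 13.18 and 13.57 CPM with vehicle and at 7.873 and 8.626 CPM with HSP990 (-0.70 ± 0.21, adjusted p = 0.26). In R6/2 the groups overlapped, with 9.619 and 10.71 CPM against 13.62 and 9.26 CPM. The difference between the Hsf1-/- and WT responses was -1.35 ± 0.30 (adjusted p = 0.066), and DESeq2 placed it past the threshold (adjusted p = 0.0052). This contrast called 0.422% of all tested genes, and 0.843% in DESeq2. The R6/2 minus WT difference was -0.48 ± 0.29 (adjusted p = 0.78).

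Between the treatments in WT, Cnn2 (-1.31 ± 0.30, adjusted p = 0.026) and Lima1 (-0.86 ± 0.21, adjusted p = 0.044) had a lower response to HS than to HSP990, against 2.38% of all tested genes called. Averaged over genotypes the difference of Cnn2 was -0.65 ± 0.17 (adjusted p = 0.025), and it missed the threshold for 8 of the 24 mice when left out singly (adjusted p up to 0.061). In WT alone the call of Lima1 ended whichever of the 8 mice was left out (adjusted p up to 0.22) and with RLE size factors (0.051), and that of Cnn2 ended for 5 of them (up to 0.14). Sex-linked expression differed between the experiments in WT and R6/2, so that sex and treatment cannot be told apart in these and the averaged differences between treatments. In the same comparison within R6/2 (1.63% of all genes called) and Hsf1-/- (0.145%), no member passed. In each, 1 member had an unadjusted p under 0.05, as had 10.5% and 10.9% of all tested genes. DESeq2 called no member, against 3.19% and 1.25% of all genes. The Lima1 values there were -0.47 ± 0.21 (adjusted p = 0.44) and -0.67 ± 0.21 (adjusted p = 0.26).

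Srf itself (mm9 chr17:46683788-46693111, minus strand) did not pass the threshold in any treatment comparison. It was at 153.5 and 167.9 CPM in WT control mice and at 149.5 and 150.2 CPM after HS, and at 165.5 and 152.8 CPM with vehicle and at 142.8 and 149.0 CPM with HSP990. The averaged differences were 0.09 ± 0.08 for HS (adjusted p = 0.63) and 0.14 ± 0.08 for HSP990 (adjusted p = 0.44). One R6/2 HS mouse stood apart from its partner, with 160.3 against 107.5 CPM for Srf, 4.258 against 2.04 CPM for Actg1 and 145.6 against 93.29 CPM for Flna. Without the lower of these mice, which leaves 1 R6/2 HS mouse assumed to vary like the other groups, Srf and Actg1 passed (adjusted p = 0.032 and 0.039), and 3.64% of all tested genes were called against 0.0436% with both mice. The mouse kept also had higher sums than its partner of endothelial (617.6 against 412.4 CPM), fibroblast (1134 against 824.8 CPM) and blood markers (49.0 against 10.69 CPM). Of all the marker lists, only muscle fibre (73250 against 88460 CPM) and slow fibre markers (147.1 against 150.4 CPM) had lower sums in it. The part of the marker sums in the result was not tested. In R6/2, Srf was at 106.7 and 101.3 CPM with vehicle and at 151.3 and 124.6 CPM with HSP990 (0.41 ± 0.15, adjusted p = 0.28, unadjusted p = 0.0128). Both of these HSP990 mice lay above both vehicle mice, as they did for 21.2% of all tested genes. The R6/2 minus WT difference in the HSP990 response of Srf was 0.53 ± 0.21 (adjusted p = 0.61).

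Vcl (mm9 chr14:21748655-21852895, plus strand) encodes vinculin, which couples actin to integrin and cadherin junctions. It was at 149.0 and 164.4 CPM in WT control mice and at 206.7 and 221.4 CPM after HS (0.45 ± 0.16, adjusted p = 0.19). In R6/2 it was at 153.7 and 156.3 CPM and then at 160.3 and 179.3 CPM (0.13 ± 0.16). Hsf1-/- mice had 235.6 and 246.1 CPM and then 268.4 and 249.5 CPM (0.10 ± 0.16). As for Actb, the HS mice lay above the control mice in each genotype, as did 23.1%, 15.1% and 20.8% of all tested genes in WT, R6/2 and Hsf1-/-. The averaged HS difference was 0.23 ± 0.09 (adjusted p = 0.17). The exons of Vcl share 2087 bases with Ap3m1 on the other strand, and whether strand was used in counting is not given in the sources used here. Flna (mm9 chrX:71468800-71495159, minus strand) encodes filamin A, which links actin filaments into networks. It was at 88.41 and 95.43 CPM in WT vehicle mice and at 116.1 and 153.2 CPM after HSP990 (0.55 ± 0.18, adjusted p = 0.15). Its averaged differences were 0.01 ± 0.10 for HS and 0.20 ± 0.10 for HSP990 (adjusted p = 0.99 and 0.34). The averaged differences of Actg1 (mm9 chr11:120207004-120209856, minus strand) were 0.38 ± 0.19 for HS and 0.19 ± 0.19 for HSP990 (adjusted p = 0.31 and 0.67). Of the 5 genes with a CArG box in the window, Lima1 and Cnn2 were called in the averaged comparisons and Srf, Vcl and Actg1 were not, while Myh9 was called without a box.

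Within single genotypes, HS called none of the 10 genes, against 2.06% of all genes in WT, 0.0436% in R6/2 and 0.00727% in Hsf1-/-. In edgeR 4, 2 and 4 of the 10 genes had an unadjusted p under 0.05 in these comparisons, as had 11.8%, 8.12% and 8.8% of all genes. DESeq2 called none of the 10, against 3.85%, 0.931% and 1.2% of all genes. HSP990 called none in R6/2 (1.43% of all genes) and in Hsf1-/- mice (0.218%), where 3 and 2 genes had an unadjusted p under 0.05, as had 9.5% and 9.48% of all genes. DESeq2 called Actb in R6/2 (adjusted p = 0.021, 2.7% of all genes called) and none in Hsf1-/- (1.03%).

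No difference in response between genotypes passed the threshold in edgeR for any of the 10 genes. For HS, the R6/2 minus WT contrast called 0.0727% and the Hsf1-/- minus WT contrast 0.16% of all tested genes, and no member had an unadjusted p under 0.05 in either, against 4.86% and 3.72% of all genes. For HSP990, the R6/2 minus WT contrast called 0.0% of all tested genes (981 genes or 7.13% with an unadjusted p under 0.05, 47 called by DESeq2), with 3 members at an unadjusted p under 0.05. The Hsf1-/- minus WT contrast had 2 such members, against 6.89% of all genes. The difference for Actb was 0.08 ± 0.18 (R6/2, HS), -0.01 ± 0.18 (Hsf1-/-, HS), -0.07 ± 0.18 (R6/2, HSP990) and -0.41 ± 0.18 (Hsf1-/-, HSP990). For Lima1 with HSP990 it was -0.28 ± 0.21 in R6/2 and -0.19 ± 0.21 in Hsf1-/-. With 2 mice a group, these standard errors leave room for differences of a size close to that of the responses themselves.

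The untreated groups were compared to ask how the levels differ between genotypes without a treatment. Srf was at 107.0 and 114.8 CPM in R6/2 control mice and at 106.7 and 101.3 CPM in R6/2 vehicle mice. It was at 153.5 and 167.9 CPM and at 165.5 and 152.8 CPM in the matching WT mice, so that the 4 R6/2 mice lay below the 4 WT mice without overlap, as they did for 13.7% of all tested genes. Srf fell by 0.57 on the log2 scale (SE 0.10, a ratio of 0.672, adjusted p = 0.00053). Within the experiments the difference was -0.53 ± 0.15 in the HS experiment (adjusted p = 0.025) and -0.61 ± 0.15 in the HSP990 experiment (adjusted p = 0.0075). In a fit of only the groups compared, the HS experiment alone called neither Srf (adjusted p = 0.071) nor Actb (0.077).

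Actb was lower in R6/2 as well (-0.34 ± 0.09, adjusted p = 0.01). In the HS experiment the difference was -0.49 ± 0.13 (adjusted p = 0.02) against -0.18 ± 0.13 in the HSP990 experiment (adjusted p = 0.36), and the R6/2 vehicle mice (179.5 and 218.6 CPM) came close to the WT vehicle mice (222.4 and 228.7 CPM). The change between the experiments was not tested. Without R6/2 vehicle mouse 1 the pooled call of Actb was lost (-0.27, adjusted p = 0.054), whereas that of Srf held without any 1 mouse. Srf and Actb were 2 of 10 genes called, against 30.5% of all tested genes. In the HS experiment alone Srf and Actb were called against 12.4% of all genes, and in the HSP990 experiment Srf alone against 19.2%.

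These directions depend on the scaling. With library size as the only scaling, the median log2 difference of all tested genes between R6/2 and WT moved from 0.05 to 0.66. Srf was then at 0.03 (adjusted p = 0.79) and Actb at 0.27 (adjusted p = 0.024), and 7 of the 10 genes passed upwards, namely Actb, Myh9, Lima1, Cnn2, Vcl, Flna and Ankrd1, as did 61.5% of all tested genes. Relative to the median of all genes, Srf was at -0.63 with TMM and at -0.62 with library size, and Actb was at -0.39 with both. Flna, at 0.30 ± 0.13 with TMM (adjusted p = 0.086, but 0.023 in a fit of only the groups compared), stood 0.25 above the median of all genes with both scalings. A change of scaling shifts all genes by nearly the same amount. The likeness of these values relative to the median was therefore fixed in advance and is no test of the differences.

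**Figure D3:**
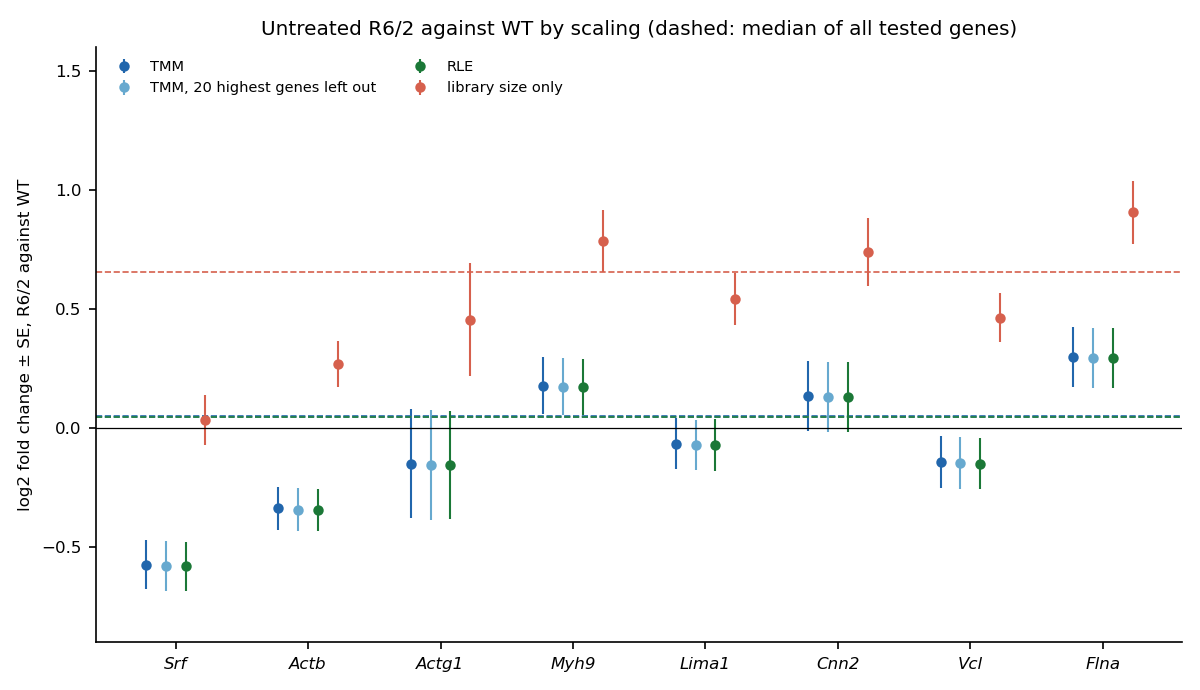
Log2 fold change with its standard error (vertical axis) of 8 genes between untreated R6/2 and WT mice under 4 scalings, with the median of all tested genes as dashed lines. Scaling by library size alone moved all 8 genes upwards with the median, from 0.05 to 0.66. Such a shift is nearly the same for every gene, so that their order stays, with Srf lowest and Flna highest.

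In untreated Hsf1-/- mice no member differed from WT past the threshold (0.974% of all genes called). An unadjusted p under 0.05 was found for 4 members and for 14.5% of all genes. Vcl came closest, at 235.6 and 246.1 CPM in control and 241.7 and 299.4 CPM in vehicle mice, against 149.0 and 164.4 CPM and 236.9 and 207.4 CPM in WT. The difference was 0.45 ± 0.11 (adjusted p = 0.064), and DESeq2 placed it past the threshold (adjusted p = 0.0075, 2.7% of all genes called). It was 0.62 ± 0.16 in the HS experiment (adjusted p = 0.05, not called, 1.93% of all genes called), where sex-linked expression also differed. It was 0.28 ± 0.16 in the HSP990 experiment (adjusted p = 0.62, 0.0872% of all genes called).

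Because Actb was among the genes that moved, it was set beside other genes used for normalisation in quantitative PCR. The group means of Actb ran from 140.9 CPM in R6/2 control mice to 329.3 CPM in WT HSP990 mice, a ratio of 2.34. The same ratio was 1.35 for Ywhaz, 1.48 for Canx, 1.75 for Atp5b, a subunit of mitochondrial ATP synthase, and 2.25 for Sdha, a subunit of succinate dehydrogenase. With library size as the only scaling the order changed, and the ratio was 2.23 for Actb, 2.11 for Ywhaz, 2.02 for Canx, 1.49 for Sdha and 1.44 for Atp5b. Between mice of a group Actb was not variable, with a within-group SD of 0.123 on the log2 scale, with a smaller SD in only 16.6% of the 11119 genes with at least 1 CPM. In untreated R6/2 mice Sdha fell by 0.94 (SE 0.10, adjusted p = 3.7e-06) and Atp5b by 0.56 (SE 0.09, adjusted p = 0.00023), and with library size alone Sdha stayed lower (-0.34, adjusted p = 0.0094) while Atp5b turned to 0.05 (adjusted p = 0.65). None of these other reference genes passed in the averaged treatment comparisons. The geometric mean of Atp5b, Sdha and Actb differed by -0.615 on the log2 scale between untreated R6/2 and WT, but by -0.0082 with library size alone. With Ywhaz added these values were -0.418 and 0.189. The mean of the 3 genes differed by 0.294 and 0.269 (0.183 and 0.206 with library size alone) between treated and untreated R6/2 mice for HS and HSP990. In WT and Hsf1-/- mice it differed by -0.0056 to 0.097. Of the transcript stretches of Ywhaz, 51.68% occurred elsewhere in the genome, and Gapdh, with 85.73%, had a count of 0 in every library.

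**Figure D4:**
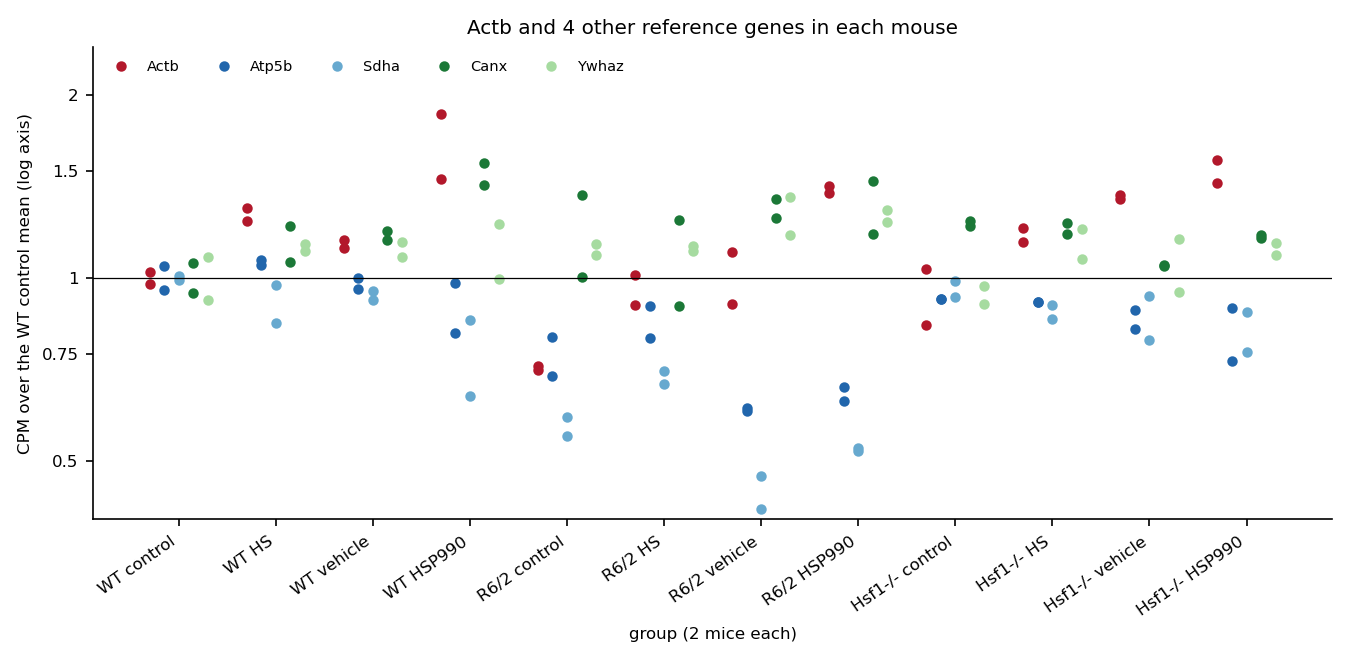
CPM of Actb, Atp5b, Sdha, Canx and Ywhaz in each of 24 mice divided by the mean of the WT control group (vertical axis, logarithmic), with 2 mice for each of 12 groups. With the TMM scaling shown, group means spanned 2.34-fold for Actb and 1.35-fold for Ywhaz, against 2.23-fold and 2.11-fold with library size alone.

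Ankrd1 and Csrp3 behaved unlike the other 8 genes in that the mice of one group differed widely. Ankrd1 (mm9 chr19:36186455-36194334, minus strand) encodes a stretch-responsive ankyrin repeat protein of the sarcomere and nucleus. Csrp3 (mm9 chr7:56085768-56103400, minus strand) encodes muscle LIM protein of the Z-disc. Ankrd1 was at 170.2 and 17.4 CPM in the R6/2 control mice, at 157.4 and 13.93 CPM in the R6/2 vehicle mice and at 81.41 and 12.49 CPM in the WT vehicle mice. Csrp3 was at 227.6 and 54.99 CPM in the WT HS mice, at 162.4 and 45.96 CPM in the R6/2 control mice and at 97.45 and 29.88 CPM in the R6/2 vehicle mice. The within-group SD was 1.54 on the log2 scale for Ankrd1 and 0.976 for Csrp3, larger than in 99.9% and 99.2% of the genes with at least 1 CPM, where the median was 0.198. It was 0.123 to 0.246 for the other 8 genes.

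In 10 of the 12 groups the mouse with more Ankrd1 also had more Csrp3. Over all 45 pairs of the 10 genes this number ran from 2 to 10, and Lima1 and Cnn2 were the other pair at 10. The same mouse had the higher summed level of 6 slow fibre markers in 7 of 12 groups for Ankrd1 and in 7 of 12 for Csrp3. Over all marker lists this number ran from 3 (satellite cell and regenerating fibre) to 8 (endothelial) for Ankrd1. For Csrp3 it ran from 3 (satellite cell and regenerating fibre) to 7 (muscle fibre and slow fibre). The log2 differences of Ankrd1 ran from -2.64 ± 1.32 (R6/2 HS, adjusted p = 0.64) to 3.13 ± 1.38 (Hsf1-/- HS, adjusted p = 0.52), and neither gene passed in any comparison with TMM scaling. With this spread between 2 mice, even differences of several-fold did not pass, such as the ratios of 8.75 (Hsf1-/- HS) and 0.16 (R6/2 HS) for Ankrd1.

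**Figure D5:**
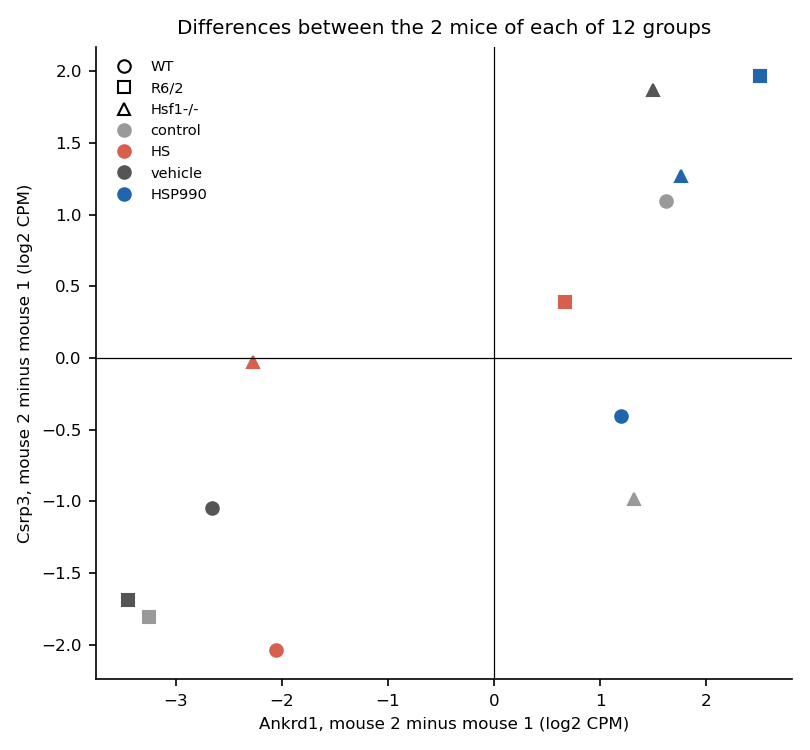
Difference between the 2 mice of each of 12 groups in log2 CPM (mouse 2 minus mouse 1) for Ankrd1 (horizontal axis) and Csrp3 (vertical axis), with symbols for genotype and colours for treatment. In 10 of 12 groups both genes were higher in the same mouse, and the numbering of the mice is arbitrary.

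Other genes of the SRF pathway were taken from lists. The averaged HS comparison called 6.14% of all tested genes. In it, 3 of 19 other SRF-MRTF targets rose and none fell, with a median of 0.17 against -0.01 over all genes. They were Ccn2, a secreted matrix protein (0.79 ± 0.16, adjusted p = 0.0073), Actn1, the non-muscle alpha-actinin (0.60 ± 0.12, adjusted p = 0.0055), and Cnn3, the acidic calponin (0.56 ± 0.10, adjusted p = 0.0023). Cnn3 thus rose in the comparison in which its relative Cnn2 fell. Of 8 SRF-TCF immediate early genes, Nr4a1 (1.23 ± 0.21, adjusted p = 0.0019), Ier2 (0.58 ± 0.16, adjusted p = 0.041) and Mcl1 (0.31 ± 0.08, adjusted p = 0.036) rose. Of 29 genes of actin dynamics, 3 rose, led by Rhob, a small GTPase that acts on actin (1.02 ± 0.17, adjusted p = 0.0015), with Limk1, a kinase that inactivates cofilin (0.66 ± 0.17, adjusted p = 0.03), and Msn, the membrane linker moesin (0.35 ± 0.08, adjusted p = 0.014). Of 19 sarcomeric genes, Tcap rose (0.55 ± 0.11, adjusted p = 0.0075). With library size alone Ier2, Mcl1, Limk1 and Msn lost the call, and 1 of 6 SRF cofactors, none of them called with TMM, passed downwards.

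The averaged HSP990 comparison called 4.65% of all tested genes. In edgeR none of the 19 other SRF-MRTF targets passed with TMM scaling, and 1 passed upwards with library size alone. With TMM, 5 of the 19 had an unadjusted p under 0.05, as had 17.1% of all genes. The median of the 19 was 0.08 against 0.01 over all genes. Rhob fell by 0.98 (SE 0.17, adjusted p = 0.002), and Mcl1 fell by 0.30 (SE 0.08, adjusted p = 0.049, but 0.083 with library size alone). Rhob was therefore called in opposite directions, and the difference between the treatments was 2.00 ± 0.24 (adjusted p = 5.3e-05). A higher response to HS than to HSP990 was also found for Actn1 (0.96 ± 0.17, adjusted p = 0.0017) and Cnn3 (0.53 ± 0.14, adjusted p = 0.026). Unlike Rhob, neither was called with HSP990 under TMM scaling. The SRF cofactors Mrtfa (-0.86 ± 0.23, adjusted p = 0.028) and Elk3 (-0.54 ± 0.15, adjusted p = 0.035) had a lower response to HS than to HSP990. With TMM scaling neither passed against its own control. Among markers of other cells, 1 of 7 endothelial markers rose and 2 fell with HS, as 1 of 7 macrophage and leukocyte markers rose. With HSP990, 1 endothelial and 1 of 6 smooth muscle and pericyte markers rose. Tek, an endothelial receptor, rose with HSP990 (0.53 ± 0.12, adjusted p = 0.013) and fell with HS (-0.58 ± 0.12, adjusted p = 0.0059), Kdr fell with HS (-1.06 ± 0.23, adjusted p = 0.0094), Pecam1 rose with HS (0.48 ± 0.11, adjusted p = 0.014), Itgam rose with HS (0.78 ± 0.22, adjusted p = 0.045, but 0.066 with library size alone), and Notch3 rose with HSP990 (0.52 ± 0.13, adjusted p = 0.03).

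In untreated R6/2 mice, where 30.5% of all tested genes were called, 11 of 19 sarcomeric actin and Z-disc genes fell and Csrp1 rose (0.52 ± 0.15, adjusted p = 0.016), with a median of -1.13 against 0.05 over all genes. With library size alone 11 fell and 7 rose. Skeletal alpha-actin Acta1 fell by 2.61 (SE 0.22, adjusted p = 6.7e-07), cardiac alpha-actin Actc1 by 2.5 (SE 0.55, adjusted p = 0.0025) and fast fibre alpha-actinin Actn3 by 1.81 (SE 0.13, adjusted p = 3.6e-07). All 8 muscle fibre markers (Ckm, Mylpf, Myh4, Myh1, Myh2, Tnnt3, Atp2a1 and Pvalb) fell as well, 7 of them also with library size alone. None of the 6 slow fibre markers passed (edgeR, median -0.69, lowest adjusted p = 0.47), and 1 of them passed upwards with library size alone. Of 29 genes of actin dynamics, 8 rose and 4 fell, led by Ezr (1.74 ± 0.25, adjusted p = 7.7e-05), Pfn2 (-1.27 ± 0.11, adjusted p = 9.4e-07) and Pfn1 (-1.18 ± 0.10, adjusted p = 5.4e-07), and with library size alone Capzb and Tmsb4x, named for this after their values were seen, changed sign, and 22 of the 29 rose and 2 fell. Of 19 other SRF-MRTF targets, Tln1 (0.39 ± 0.10, adjusted p = 0.01) rose and Pdlim7 (-1.02 ± 0.16, adjusted p = 0.00015) fell, whereas with library size alone 16 rose and 1 fell. Of the 6 cofactors tested Fhl2 rose (1.26 ± 0.38, adjusted p = 0.019), and of 8 immediate early genes Nr4a1 fell (-0.97 ± 0.26, adjusted p = 0.0086), a call that was lost with library size alone (-0.37, adjusted p = 0.19).

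The genes whose group means ran most like those of 3 members were sought among 11092 genes by Pearson's r over 12 group means, as a description. For Srf they were Fez2 (0.957), 9930104L06Rik (0.938), A430005L14Rik (0.936), Asb18 (0.934) and Gpx1 (0.931). For Actb they were Nrarp (0.883), Robo4 (0.873), Tie1 (0.868), Arrdc4 (0.865) and Plcb1 (0.865), of which Robo4 and Tie1 are receptors of the endothelium. For Ankrd1 they were Mustn1 (0.964), Dot1l (0.868), Xirp1 (0.859), Smtn (0.858) and Flnc (0.855), of which Xirp1 and Flnc encode proteins of the Z-disc and its repair. The group means share their libraries, and for Ankrd1 they rest on mice that differ widely.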

How the data were processed

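Poly(A) RNA of 24 quadriceps muscles was sequenced strand-specifically as read pairs of 40 bases, and the authors mapped the reads with Bowtie to mm9. The deposited table holds raw counts per gene. The counting program and annotation are not given in the sources used here. Gene symbols were assigned to 18594 of 18669 gene identifiers. A gene was tested if 10 or more libraries had 2 or more counts for it. Counts were scaled by TMM and fitted with edgeR 4.0.16 (R 4.3.3), glmQLFit and glmQLFTest, over all 12 groups, with Benjamini-Hochberg adjustment over 13754 genes and 12 residual degrees of freedom. The standard error is the log2 fold change divided by the square root of F. An adjusted p under 0.05 was called. The 2 mice of a group are taken as replicates, and an exact permutation of 2 against 2 cannot go below p = 0.333. The 10 genes, the lists and the 15 comparisons (with 4 within an experiment) were chosen with earlier results of these data known, and 3 averaged comparisons and the reference gene values with library size alone were added after the data were seen. All 10 genes were named in each comparison. From the other lists at most 3 called genes with the largest change were named, together with the reference genes, and for Srf, Actb and Ankrd1 the 5 genes most alike. Tested alternatives were RLE size factors, library size, TMM without the 20 highest genes, no filter, filterByExpr, DESeq2 1.42.0, a fit of only the groups compared, a replicate block and leaving out each mouse. The code was tested on simulated data.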

Additional observations from a re-analysis of the deposited data

How the results depend on the processing

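The number of the 10 genes called moved under each alternative tried except the omission of the filter. With library size alone it was 1 in WT HS (main value 0), 7 in untreated R6/2 (2), 5 and 6 within its HS and HSP990 experiments (2 and 1). There the log2 difference of Srf turned to 0.034 over both experiments and to 0.0065 and 0.061 within them, and that of Actb to 0.269 over both and 0.048 in the HS experiment. With only the groups compared it was 0 in WT HSP990 (3) and 0 in untreated R6/2 of the HS experiment (2). With RLE size factors it was 1 in WT HS minus HSP990 (2). With DESeq2 it was 1 in R6/2 HSP990 (Actb), 1 in untreated Hsf1-/- (Vcl) and 1 in Hsf1-/- minus WT HSP990 (Cnn2). In untreated Hsf1-/- of the HS experiment Vcl made it 1 with RLE size factors, TMM without the 20 highest genes, filterByExpr, DESeq2 and only the groups compared. The cause was not tested. Leaving out 1 mouse, the number ran from 0 to 2 in WT HSP990 and R6/2 HS, from 0 to 1 in WT HS minus HSP990 and within either experiment of untreated R6/2, from 1 to 2 in untreated R6/2 and in averaged HS minus HSP990, and from 2 to 3 in the averaged HS and HSP990 comparisons. Same-numbered mice did not deviate together (r from -0.197 to 0.239 over 6 treatment comparisons, 2 pairs each) and no label pairs them. The replicate block left 3 calls in WT HSP990, 2 in untreated R6/2 and 2 in averaged HS, where Myh9 was lost (adjusted p = 0.057). It changed no other call. The lowest count in a library was 37 for Actg1, 104 for Ankrd1 and 126 for Cnn2.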
